A study of Homo sapiens with 9 samples.

Results

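Expression of 10 genes known as targets of Wnt signalling or as markers of intestinal stem cells was followed in HCT116 cells that expressed tazarotene-induced gene 1 (TIG1): MYC, SOX9, LGR5, ASCL2, NOTUM, NKD1, RNF43, ZNRF3, TNFRSF19 and CD44. They were chosen by name, and all 29 probe sets annotated to them were taken from the 54675 probe sets of the array. HCT116 is a human colon cancer cell line that carries an activating mutation of β-catenin, so its Wnt pathway is active without ligand. RNA came from 9 cultures, 3 each of control, TIG1A and TIG1B stable cells. All 3 lines carried the GeneSwitch regulator plasmid pSwitch, a hybrid transcription factor that mifepristone (MFP) activates, and all received MFP at 5 nM for 24 h. The control line carried the empty pGene/V5 vector, the TIG1A line the long isoform of 294 amino acids and the TIG1B line the short isoform of 228 amino acids. Each line was 1 stable clone, so a difference between isoforms and a difference between clones cannot be told apart, and the spread between arrays is that of 3 samples of 1 clone.

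In the Wnt pathway, ligands bind Frizzled receptors and LRP co-receptors at the cell surface, β-catenin is spared from degradation, and it activates genes together with TCF/LEF factors in the nucleus. Several of these target genes feed back on the pathway itself: RNF43 and ZNRF3 are membrane ubiquitin ligases that remove Frizzled receptors, NOTUM is a secreted enzyme that inactivates Wnt ligands, and NKD1 and AXIN2 act inside the cell against the signal. LGR5, a receptor for R-spondins, and ASCL2, a transcription factor, mark the stem cells at the base of the intestinal crypt.

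Each probe set has 1 linear signal intensity per array, scaled by the authors to a common target of 500. The medians of the arrays lay between 59.9 and 73.9, and probe sets were tested that reached this median on 2 or more of the 3 arrays of any group. Of the 7 epithelial markers EPCAM, CDH1, KRT8, KRT18, KRT19, CDX2 and VIL1, between 5 and 7 were at or above the median on each array. Of 7 markers of fibroblasts, leukocytes and endothelium, 1 to 3 were, with summed intensities of 275 to 491 against 105473 to 137307 for the epithelial markers. The induced gene itself, RARRES1 (206391_at), had intensities of 57.9, 48.8 and 4.80 in control cells, below the array median throughout. It had 56404, 41198 and 45689 in TIG1A cells and 27085, 19538 and 18603 in TIG1B cells. With the control arrays set at their medians, the group means on the log2 scale differed by at least 661-fold in TIG1A and 299-fold in TIG1B cells. The limma test used the control values as measured and gave adjusted p-values of 0.00532 and 0.0101. The induced gene thus separated the arrays labelled TIG1A or TIG1B from the control arrays. All TIG1A arrays also lay above all TIG1B arrays at this probe set, by 1.14 on the log2 scale between the means. That difference did not pass (SE 0.85, adjusted p = 0.623, limma), in a fit whose spread includes that of the dim control values.

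TIG1A replicate 1 and TIG1B replicate 1 stood apart in the ratio of the GAPDH 3′ to 5′ control probe sets, a measure of RNA or labelling integrity. The ratio was 1.00 and 1.01 there, 0.899 to 0.905 on the other 4 arrays of these lines and 0.924 to 0.950 on the control arrays. Its part in the differences was not tested. Without these arrays 0 of 19 members were called in any comparison, and the calls over all 29977 probe sets dropped from 1818 to 343 in TIG1A cells, from 535 to 10 in TIG1B cells and from 125 to 0 between the isoforms. The log2 difference of SOX9 in TIG1A cells was then -0.79 (adjusted p = 0.0836, limma). A drop as large in TIG1A cells also followed the omission of 1 other array. There were 255 calls without TIG1A replicate 3, 296 without TIG1A replicate 2 and 329 without control replicate 2. Without control replicate 1 the calls rose to 2799. The drop in TIG1A cells was thus not particular to the arrays with the higher ratio. The paper reports high array and RNA quality.

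Of the 19 tested probe sets 16 were below control in TIG1A cells, but only SOX9 passed the test, and none passed in TIG1B cells. The 19 probe sets covered 7 of the 10 genes, and the other 10 probe sets, including all those of LGR5, ASCL2 and TNFRSF19, did not reach the filter. Of the 19, 14 were at or above the array median on all 9 arrays and 5 crossed it. NKD1 232203_at and CD44 216056_at passed the filter through the control arrays only. NKD1 1553115_at and CD44 1565868_at passed through the TIG1A arrays only. CD44 217523_at passed through the TIG1A and TIG1B arrays, with every control array below the median. The filter favoured the direction of these differences, which count as members in all shares below. In TIG1A cells 1 of 19 probe sets was called at an adjusted p below 0.05 (limma, all 9 arrays), against 6.06% of all 29977 tested probe sets. In TIG1B cells 0 of 19 were called, against 1.78%, and between TIG1A and TIG1B 0 of 19 were called, against 0.417%. The F test for any difference among the 3 lines called 0 of 19, against 4.07%. At an unadjusted p below 0.05 the counts were 9 in TIG1A cells (25% of all probe sets), 3 in TIG1B cells (18.5%), 9 between the isoforms (13.3%) and 7 in the F test (23.9%). All 9 in TIG1A cells and all 3 in TIG1B cells were below control, a direction that 13.6% and 10.7% of all probe sets had at this p. Between the isoforms 8 were lower in TIG1A (6.59% of all) and 1 was higher (6.67%). The adjusted test thus called 5.26% of the members in TIG1A cells, a share near the background. The arrays of TIG1A lay wholly below those of control in 6 of 19 probe sets (16.9% of all), from MYC, SOX9, NOTUM, RNF43 and CD44. Those of TIG1B lay wholly below control in 4 (14%), from SOX9, RNF43 and ZNRF3, and wholly above in 1 (10.8%), from CD44. Between the isoforms TIG1A lay wholly below TIG1B in 9 (12.1%) and wholly above in 1 (12%).

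The median log2 difference of the 19 probe sets was -0.48 in TIG1A cells, beside -0.044 for all tested probe sets. It was 0.033 in TIG1B cells, beside -0.030. Because 11 of the 19 belong to CD44, the brightest probe set of each of the 7 genes was also taken. By that measure the median was -0.55 in TIG1A cells, with 7 of 7 genes below control, and -0.72 in TIG1B cells, with 6 of 7 below control. Of all 13407 genes measured in this way, 52.3% and 51.2% were below control. Without NKD1, whose probe sets differed in sign, 6 of 6 and 5 of 6 genes were below control, and 5 and 4 with each array centred on its median. The medians without NKD1 were -0.50 in TIG1A and -0.44 in TIG1B cells, so the lower TIG1B median above rested on NKD1. For all genes measured in this way the medians were -0.031 and -0.011. Of the 19 probe sets, 16 were below control in TIG1A cells and 9 in TIG1B cells, and 14 were lower in TIG1A than in TIG1B. Over all tested probe sets these shares were 53.3%, 52.8% and 49.9%. The comparisons with control share the same 3 control arrays. Centring each array on its own median raised every difference by 0.16 in TIG1A and 0.15 in TIG1B cells, and 15 and 7 of the 19 were then below control.

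**Figure D1:**
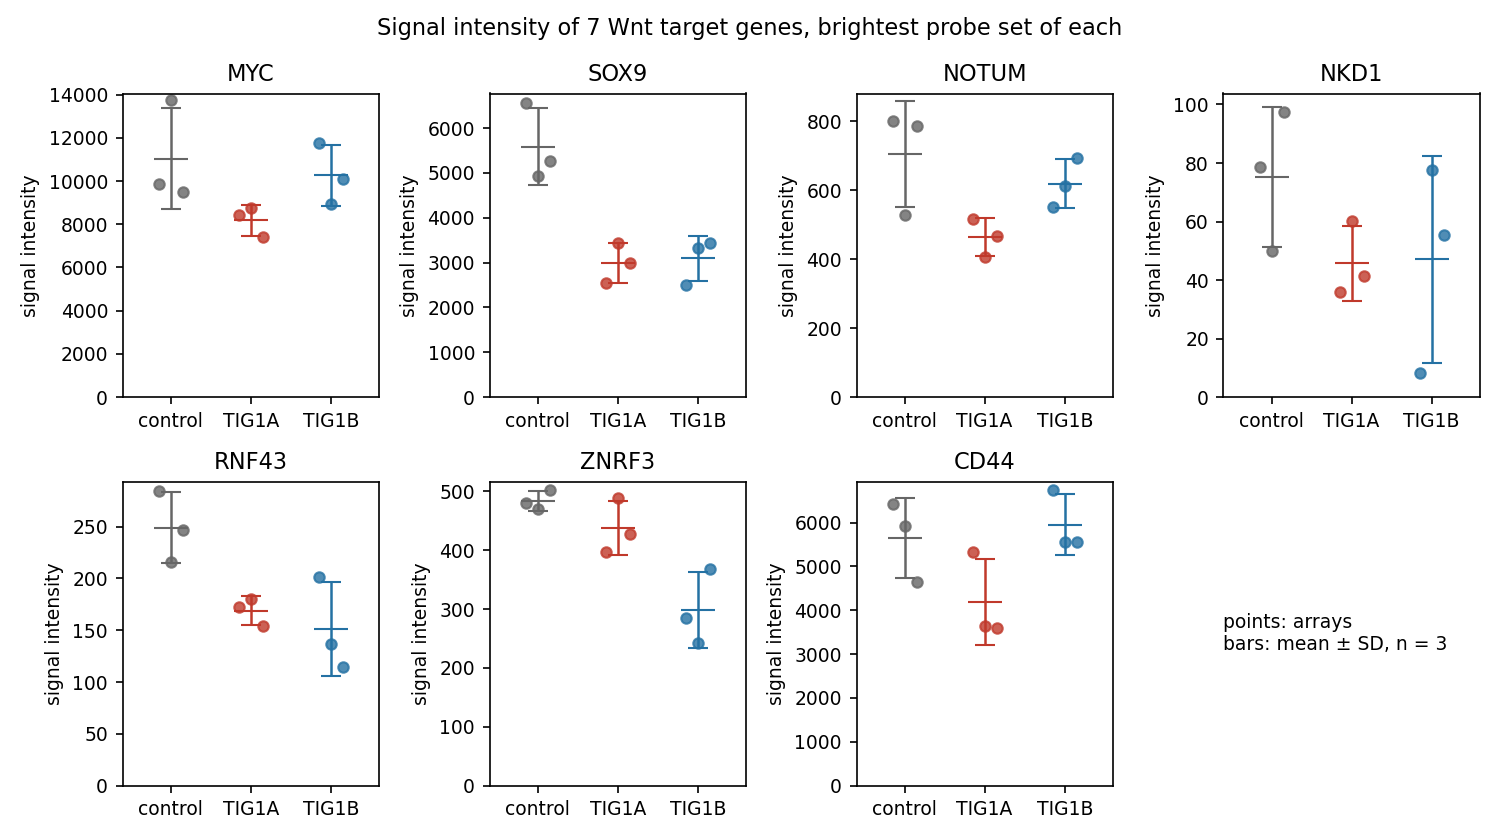
Signal intensity (vertical axis, linear, starting at 0) of the brightest tested probe set of 7 genes in control, TIG1A and TIG1B stable cells. Points are the 3 arrays of a line and bars show mean ± SD; SOX9 and RNF43 were lower on every TIG1A and TIG1B array than on any control array, whereas CD44 overlapped with control in both lines.

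SOX9, a transcription factor of crypt stem and Paneth cells (chr17:72121020-72126416, GRCh38), was the only member called. Its brighter probe set, 202936_s_at, gave 6566, 4931 and 5261 in control cells. It gave 2541, 3435 and 2986 in TIG1A cells and 2510, 3328 and 3443 in TIG1B cells. Every array of either TIG1 line was below every control array, and the TIG1A and TIG1B values overlapped. SOX9 fell by 0.90 on the log2 scale in TIG1A cells (SE 0.20, 1.87-fold, adjusted p = 0.0397, limma). The log2 difference in TIG1B cells was -0.86 (SE 0.20, 1.81-fold lower) with an adjusted p of 0.0777 by limma, which missed the threshold. Between TIG1A and TIG1B it was -0.047, with a 95% interval of -0.50 to 0.41 and an adjusted p of 0.949 by limma. The call in TIG1A cells was close to the threshold: it was lost when any 1 array other than TIG1B replicate 1 was left out (adjusted p 0.0422 to 0.110 over all 9 omissions), and with each array centred on its median (adjusted p = 0.101). The second SOX9 probe set, 202935_s_at, averaged 2404 ± 498 in control cells, against 1690 ± 570 in TIG1A and 1544 ± 324 in TIG1B (SD, n = 3). Its log2 differences of -0.54 in TIG1A and -0.64 in TIG1B cells went the same way and did not pass (adjusted p 0.282 and 0.281, limma).

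The 5 probe sets of other genes whose log2 intensities over the 9 arrays most resembled those of SOX9 202936_s_at were CKAP4 (Pearson r = 0.98), TINAGL1 (0.98), CNKSR1 (0.98), NECAP1 (0.98) and LRP8 (0.97). They were picked as the highest of 25333 and share their arrays with SOX9, so the coefficients describe these arrays only. CKAP4, a membrane protein of the endoplasmic reticulum, averaged 1330 ± 118 in control cells, against 820 ± 40.8 in TIG1A and 848 ± 108 in TIG1B. LRP8, a lipoprotein receptor, had means of 669 ± 98.1, 378 ± 55.9 and 396 ± 77.3 (SD, n = 3).

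MYC, the transcription factor on chromosome 8 that drives growth and is a classical β-catenin target, had high intensities in all lines. Its probe set, 202431_s_at, gave 9881, 13734 and 9492 in control cells, 8411, 8747 and 7393 in TIG1A cells and 11751, 8958 and 10096 in TIG1B cells. All TIG1A arrays were below all control arrays, whereas TIG1B and control overlapped. The log2 difference was -0.41 in TIG1A cells (SE 0.19, adjusted p = 0.219) and -0.092 in TIG1B cells (SE 0.19, adjusted p = 0.828, limma for both). Without control replicate 2 the TIG1A difference was -0.25. The 95% interval in TIG1B cells ran from -0.53 to 0.34, so a change of the size seen in TIG1A cells was within it. With each array centred on its median the TIG1B difference became 0.053.

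Among the feedback inhibitors at the cell surface, RNF43 and ZNRF3 had their lowest intensities in TIG1B cells, and neither passed the test. RNF43 (chr17:58352500-58417534, 218704_at) gave 284, 216 and 246 in control cells. It gave 173, 180 and 154 in TIG1A cells and 201, 137 and 114 in TIG1B cells. The arrays of both TIG1 lines lay below all control arrays. The log2 differences were -0.55 (SE 0.22, adjusted p = 0.177) in TIG1A and -0.75 (SE 0.22, adjusted p = 0.137) in TIG1B cells by limma. Between TIG1A and TIG1B the RNF43 arrays overlapped, with a log2 difference of 0.20 (SE 0.22, adjusted p = 0.768, limma). ZNRF3 (chr22:28883572-29057488, 226360_at) gave 480, 469 and 503 in control cells, 397, 488 and 428 in TIG1A cells and 285, 243 and 369 in TIG1B cells. TIG1A overlapped with control, and TIG1B lay below both. Its log2 difference was -0.15 in TIG1A cells (SE 0.18, adjusted p = 0.638) and -0.72 in TIG1B cells (SE 0.18, adjusted p = 0.092, limma for both). TIG1A exceeded TIG1B by 0.57 on the log2 scale, with an adjusted p of 0.245 by limma, so the lines were not shown to differ in ZNRF3. Centring on the array median turned the small TIG1A difference to 0.015.

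NOTUM and NKD1 act on the ligand and inside the cell. NOTUM (chr17:81952507-81961187, 228649_at) gave 801, 529 and 785 in control cells, 517, 407 and 467 in TIG1A cells and 552, 613 and 692 in TIG1B cells. The TIG1A arrays lay below those of both other lines, and TIG1B overlapped with control. The log2 difference from control was -0.59 in TIG1A cells (SE 0.20, adjusted p = 0.124) and -0.17 in TIG1B cells (SE 0.20, adjusted p = 0.695, limma for both). For NKD1 (chr16:50548396-50649249) only 8 of 27 values over 3 probe sets reached the array median. The 2 tested NKD1 probe sets differed in sign: 232203_at had log2 differences of -0.70 and -1.14 in TIG1A and TIG1B cells, and 1553115_at had 0.22 and 0.26. At 232203_at the TIG1B value rested on replicate 1, at 8.37 against 77.6 and 55.5 on the other arrays of the line, and was -0.15 without it. Their adjusted p-values lay between 0.470 and 0.834 (limma), and no direction can be given for NKD1.

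**Figure D2:**
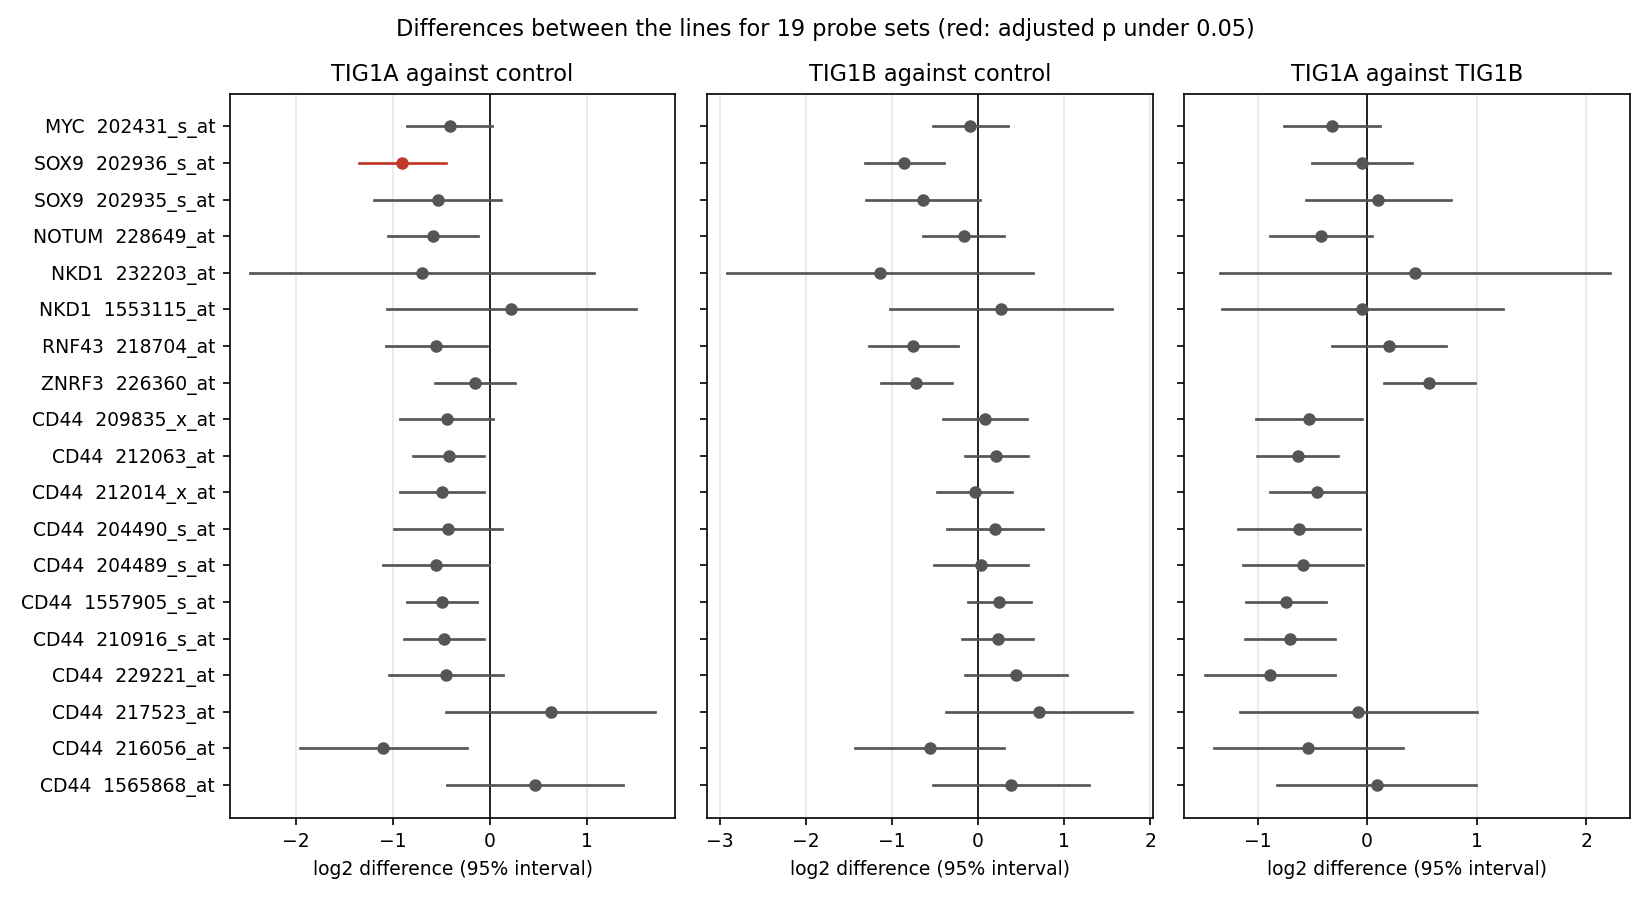
Log2 difference (horizontal axes; each panel has its own range) of the 19 tested probe sets in 3 comparisons, with 95% intervals from limma on 9 arrays. The red point is SOX9 202936_s_at in TIG1A against control at -0.90, the only difference with an adjusted p below 0.05; the wide intervals belong to NKD1 and the dim CD44 probe sets.

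CD44, the hyaluronan receptor used as a marker of crypt progenitors and of colon cancer stem cells (chr11:35139171-35232402), had intensities below control in TIG1A cells and close to or above control in TIG1B cells, without passing the test in either. Of its 13 probe sets, 8 were at or above the median on all 9 arrays. All 8 were below control in TIG1A cells, with log2 differences of -0.55 to -0.43 (SE 0.16 to 0.26) and adjusted p-values of 0.103 to 0.314 by limma. Over the omissions of 1 array these differences spanned -0.82 to -0.22, moving by over 1.5 times at 2 of the 8: 229221_at was -0.22 without TIG1A replicate 1, and 204490_s_at was -0.26 without TIG1A replicate 3. In TIG1B cells the same 8 ranged from -0.041 to 0.44, with adjusted p-values of 0.407 to 0.954 by limma, and all 8 moved by over 1.5 times with 1 array or another left out (-0.19 to 0.58 in all). The probe sets share transcripts and are no replicates of each other.

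For 1557905_s_at, intensities were 3750, 3170 and 2868 in control cells, 2661, 2060 and 2228 in TIG1A and 3772, 4023 and 3760 in TIG1B. Control lay between the lines, with no overlap among the 3 groups. TIG1A was 0.74 below TIG1B on the log2 scale (95% interval -1.11 to -0.38), with an unadjusted p of 0.00161 and an adjusted p of 0.114 by limma. For 212063_at, intensities were 4824, 6428 and 4856 in control cells, 4261, 4128 and 3536 in TIG1A and 5984, 6191 and 6286 in TIG1B. TIG1A lay below all other arrays, and TIG1B lay within the range of control. For 229221_at, intensities were 374, 414 and 276 in control cells, 186, 290 and 309 in TIG1A and 387, 519 and 529 in TIG1B. This probe set had the largest difference between TIG1A and TIG1B of the 8, at -0.89 (SE 0.26, adjusted p = 0.208, limma).

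Over the 8 bright CD44 probe sets, TIG1A was below TIG1B by 0.46 to 0.89 on the log2 scale. In 7 of the 8 the arrays of the isoforms did not overlap, and all 8 had an unadjusted p below 0.05. With adjusted p-values of 0.114 to 0.351 by limma, the isoforms were not shown to differ in CD44. The remaining CD44 probe sets were dim: 3 crossed the array median and were tested (217523_at, 216056_at and 1565868_at, adjusted p in TIG1A cells 0.119 to 0.494, limma), and 2 were not.

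**Figure D3:**
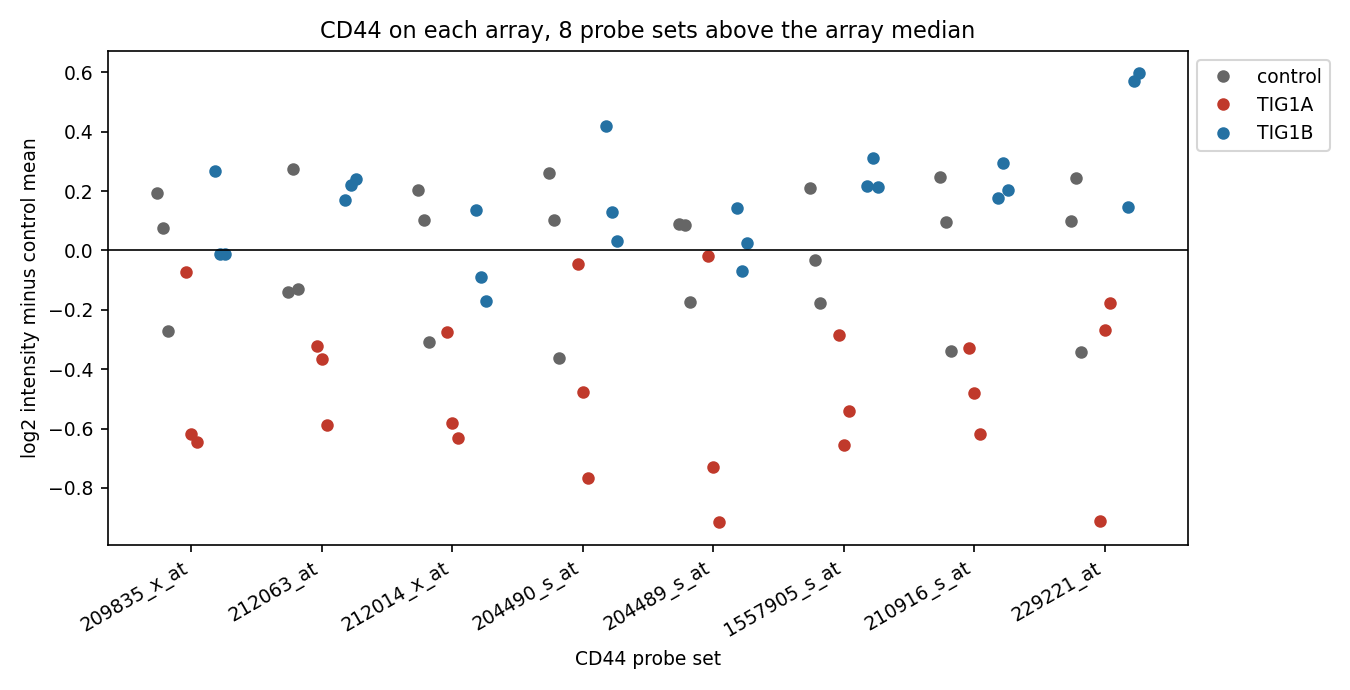
Log2 intensity of 8 CD44 probe sets on each array minus the mean of the control arrays of that probe set (vertical axis; horizontal line at 0, the control mean). All TIG1A points lie below 0, most TIG1B points lie at or above 0, and the control points spread on both sides; TIG1A replicate 1 is the nearest of its line to the control mean in every probe set but 229221_at.

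Promoter sequence was available in the RefSeq table (GRCh38.p14) for CD44, RNF43 and TNFRSF19, and the windows of CD44 and RNF43, both measured above the array median, are shown as the 250 bases before the annotated start, read in the direction of the gene. The windows are chr11:35138921-35139170 on the plus strand for CD44 and chr17:58417535-58417784 on the minus strand for RNF43 (the outer of its 2 starts). Capitals mark GGGCGG and its reverse complement CCGCCC, the GC box bound by Sp factors.
CD44: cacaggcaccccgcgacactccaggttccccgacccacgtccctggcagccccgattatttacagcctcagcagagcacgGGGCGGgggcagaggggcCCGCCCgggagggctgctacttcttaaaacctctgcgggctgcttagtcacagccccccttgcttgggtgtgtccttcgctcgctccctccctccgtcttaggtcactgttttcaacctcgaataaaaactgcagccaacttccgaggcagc
RNF43: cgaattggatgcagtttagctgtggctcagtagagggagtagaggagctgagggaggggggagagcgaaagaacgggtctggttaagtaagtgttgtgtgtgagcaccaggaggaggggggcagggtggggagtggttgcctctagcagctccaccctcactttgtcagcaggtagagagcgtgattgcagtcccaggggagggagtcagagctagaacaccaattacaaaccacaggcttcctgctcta
The core of the TCF/LEF motif, CTTTGA on either strand, was in neither window nor in the other windows of these genes, and 11.2% of 35116 windows of the same length hold it. The GC box was found 2 times before CD44 and 0 times before RNF43, and 42.6% of all windows hold it. The E-box CACGTG, bound by MYC with MAX, was in neither, and 6.34% of windows hold it. These matches describe the letters of the windows and say nothing on whether a factor binds.

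The crypt base stem cell markers lay below the middle of the arrays in all 3 lines, with the exception of 1 value of ASCL2. LGR5 (chr12:71439129-71586310) had 18 values over 2 probe sets, all below the array median, with a median of 4.31 and a highest value of 44.8. ASCL2 (chr11:2268498-2270588) had 18 values, of which 1, a TIG1B array at 78.2, reached the median. TNFRSF19, a receptor of the TNF family found on crypt stem cells (chr13:23570412-23676093), had 27 values, all below the median, the highest at 71.3. Of the 14 comparisons of these 7 probe sets with control, the arrays did not overlap in 4, all lower than control, 3 in TIG1A and 1 in TIG1B cells. Among all 24636 probe sets below the filter, 8.74% lay wholly below control in TIG1A and 8.02% in TIG1B cells. For LGR5 213880_at, control gave 4.47, 3.91 and 41.9 and TIG1A 1.78, 2.37 and 1.68. TIG1B gave 29.1, 29.2 and 2.05 there and overlapped with control. At the other LGR5 probe set, 210393_at, both lines overlapped with control. An exact permutation test of 3 arrays against 3 (two-sided) cannot go below p = 0.1, which those 4 reached. At such intensities, and in RNA from a whole culture, fewer cells that express a gene and less RNA per cell cannot be told apart. No fold change is given for these genes.

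**Figure D4:**
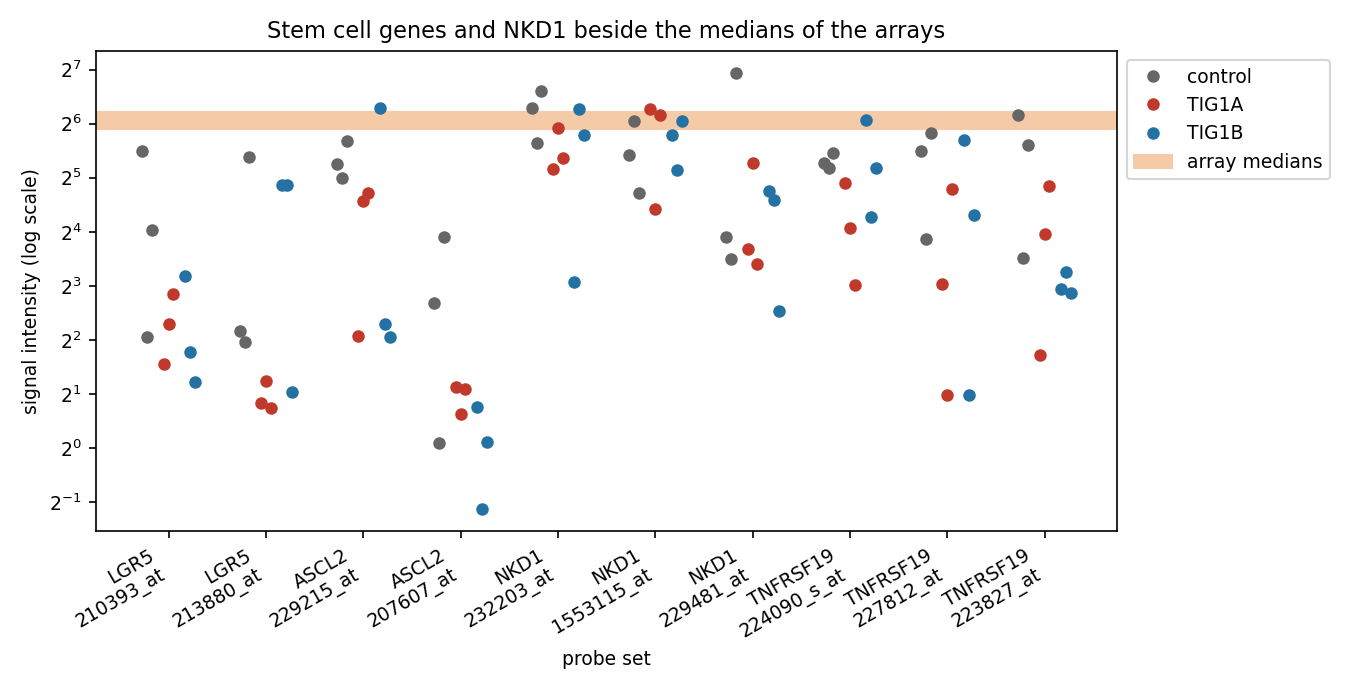
Signal intensity (vertical axis, log scale) of the probe sets of LGR5, ASCL2, NKD1 and TNFRSF19 on the 9 arrays, with the band of the array medians (59.9 to 73.9). LGR5 and TNFRSF19 stay below the median of their arrays throughout, ASCL2 reaches it on 1 TIG1B array, and NKD1 crosses it in all 3 lines.

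Other genes of the pathway were counted from lists of the pathway and of the crypt. Of 24 other Wnt target genes, 16 had 41 tested probe sets, and 4 probe sets of 3 genes rose in TIG1A cells while 0 fell, 9.76% beside the 6.06% called over all probe sets. The 4 include JAG1 231183_s_at, which passed the filter only through the TIG1A and TIG1B arrays, where it was higher. At an unadjusted p below 0.05, 15 probe sets were above control in TIG1A cells (11.4% of all probe sets) and 5 below (13.6% of all). The median log2 difference of the list was 0.26, beside -0.044 for all probe sets. In TIG1B cells 0 were called, with a median of -0.088 and 7 probe sets above (7.88% of all) and 5 below control (10.7% of all) at an unadjusted p below 0.05 (limma). AXIN2, the scaffold of the β-catenin destruction complex and a widely used Wnt target, had intensities of 494, 660 and 889 in control cells at 222696_at. They were 1626, 1639 and 1659 in TIG1A cells and 764, 917 and 977 in TIG1B cells. TIG1A lay above all other arrays, and TIG1B overlapped with control. AXIN2 rose by 1.31 on the log2 scale in TIG1A cells (SE 0.22, 2.48-fold, adjusted p = 0.0210, limma). All 4 AXIN2 probe sets were above control in TIG1A cells, by 0.70 to 1.31, and 2 of 4 were in TIG1B cells. TIG1A exceeded TIG1B by 0.90 at 222696_at (adjusted p = 0.156, limma), which did not pass.

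JAG1, a ligand of Notch, rose in TIG1A cells at 2 of 4 tested probe sets, 216268_s_at and 231183_s_at. The latter was below the median on every control array and passed the filter through the TIG1A and TIG1B arrays only. The filter thus favoured its rise, and it was called in 0 of 9 omissions of 1 array. The brightest JAG1 probe set, 209099_x_at, was not called (0.91, adjusted p = 0.133, limma). At 216268_s_at, the brighter of the 2 called, the mean was 558 ± 137 in control cells, 1052 ± 80.5 in TIG1A and 755 ± 96.8 in TIG1B (SD, n = 3). The log2 difference there was 0.94 in TIG1A cells (adjusted p = 0.0369, limma). PPARD, a nuclear receptor, rose in TIG1A cells at 1 of 4 probe sets, 37152_at, by 0.58 (adjusted p = 0.0464, limma). There the mean was 1250 ± 33.3 in control cells, 1879 ± 185 in TIG1A and 1179 ± 102 in TIG1B.

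Of 15 other crypt and stem cell genes, 9 had 27 tested probe sets. In TIG1A cells 1 rose and 3 fell, 14.8% beside the 6.06% over all probe sets, and 0 were called in TIG1B cells. This balance depended on the scaling: with each array centred on its median 3 rose, all of CD24, and 0 fell. The median log2 differences were -0.37 and -0.023. At an unadjusted p below 0.05, 6 probe sets were above (11.4% of all) and 6 below control (13.6% of all) in TIG1A cells. In TIG1B cells 5 were above (7.88% of all) and 4 below (10.7% of all). CDK6, a cell cycle kinase, fell by 1.02 at 224848_at in TIG1A cells (SE 0.21, adjusted p = 0.0363, limma), from 3656 ± 947 in control to 1766 ± 207, with 2737 ± 68.9 in TIG1B cells. It was the 1 called of 7 tested CDK6 probe sets, of which 6 were below control in TIG1A cells. At the brightest, 224847_at, TIG1A overlapped with control (-0.56, adjusted p = 0.207, limma). SLC12A2, the sodium-potassium-chloride cotransporter of crypt cells, fell by 0.85 at 204404_at (adjusted p = 0.0486) and RGMB, a co-receptor of bone morphogenetic proteins, by 0.47 at 226989_at (adjusted p = 0.0492, limma for both). The 2 tested probe sets of SLC12A2 and the 3 of RGMB were all below control in TIG1A cells, with 1 of each called. CD24, a surface glycoprotein, rose by 1.08 at 216379_x_at (adjusted p = 0.0474, limma). All 6 CD24 probe sets were above control in both lines, by 0.58 to 1.19 in TIG1A cells and 0.22 to 0.98 in TIG1B cells, although 5 of the 6 in TIG1A cells and all in TIG1B cells missed the threshold. Centring on the array median ended the calls of CDK6, SLC12A2 and RGMB (adjusted p 0.0727, 0.109 and 0.199) and kept those of AXIN2, JAG1, PPARD and CD24.

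Of 20 Wnt receptors, R-spondins and their kin, 14 had 25 tested probe sets, and of 14 genes of differentiated intestinal cells 5 had 5. By limma 0 were called in either line, against 6.06% of all probe sets in TIG1A and 1.78% in TIG1B cells. At an unadjusted p below 0.05, 6 receptor probe sets were above and 2 below control in TIG1A cells, and 1 was above and 1 below in TIG1B cells. Of the differentiation genes 1 was above control in TIG1A and 1 below in TIG1B cells. Over all tested probe sets 11.4% were above and 13.6% below in TIG1A cells at this p, and 7.88% and 10.7% in TIG1B cells. The median log2 difference of the receptors was 0.029 in TIG1A and 0.031 in TIG1B cells, and that of the differentiation genes was 0.33 in TIG1A and 0.21 in TIG1B cells. The calls in these lists depended on single arrays: over the 9 omissions of 1 array the other Wnt targets had 0 to 5 called probe sets in TIG1A cells and the other crypt genes 0 to 7. Without TIG1A replicate 1 and TIG1B replicate 1 both had 0, with AXIN2 at 1.32 on the log2 scale (adjusted p = 0.0672, limma).

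**Figure D5:**
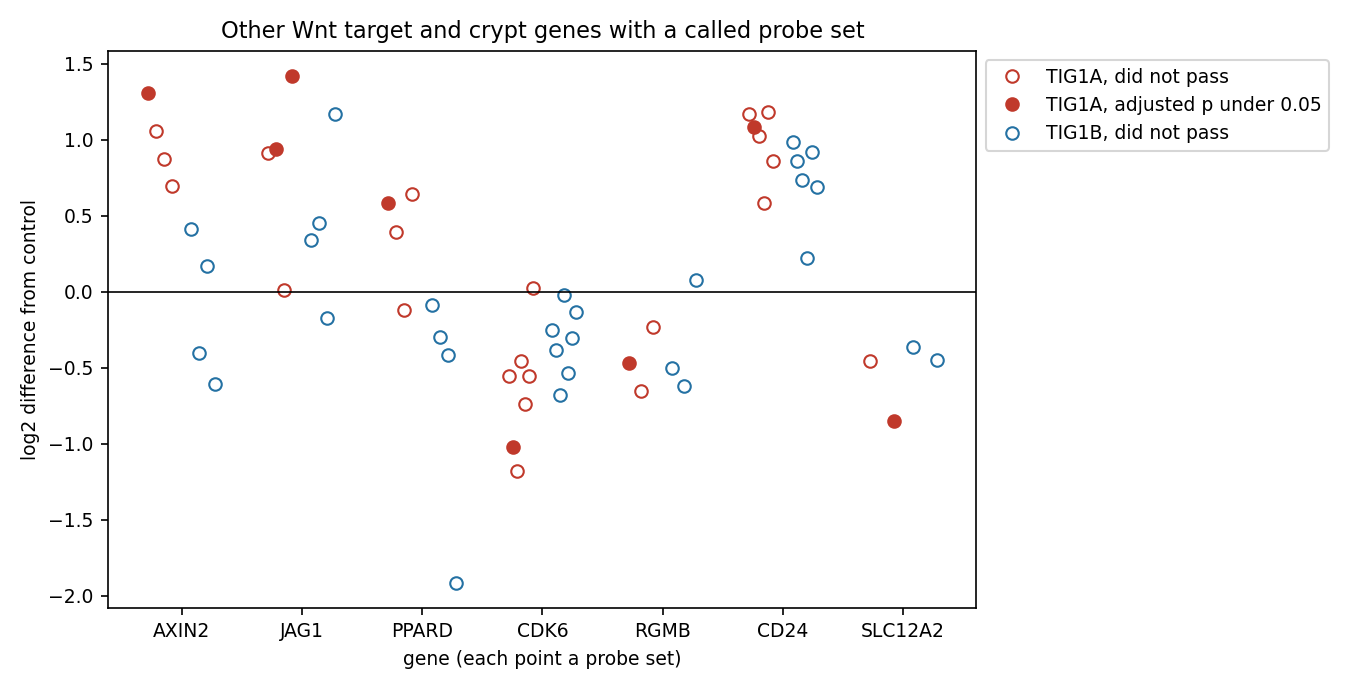
Log2 difference from control (vertical axis) of every tested probe set of 7 other Wnt target and crypt genes, in TIG1A and TIG1B cells. Filled points passed an adjusted p of 0.05, all of them TIG1A; AXIN2, JAG1 and CD24 lie above 0 in TIG1A cells and most CDK6, RGMB and SLC12A2 points lie below 0 in both lines.

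Genes near the members on their chromosomes were compared as well, 10 measured genes on each side. The median log2 difference of these 20 neighbours in TIG1A cells was 0.078 for SOX9, 0.36 for NOTUM, -0.071 for RNF43 and 0.23 for CD44, and in TIG1B cells -0.086, -0.089, -0.0076 and 0.069. SOX9 itself had -0.90 and -0.86.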

How the data were processed

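RNA from the stable lines was hybridised to Affymetrix HG-U133 Plus 2.0 arrays, with 3 arrays a line. The deposited signal intensities are linear values that the authors made with the GeneChip Operating System and scaled to a target of 500, so each array has nearly the same trimmed mean. Detection calls were not used here, and the further rescaling named in the study's methods is not in these values. The series text gives MFP as 5 µM where labels and paper give 5 nM, which was taken.

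The 62 array controls were set aside. Probe sets at or above the 50th percentile of their array on at least 2 of 3 arrays of a group were tested (29977 of 54675, 13407 genes). Intensities were floored at 1 and log2-transformed, so differences are on the log2 scale. One mean per line was fitted to all 9 arrays with limma 3.58.1 in R 4.3.3 (6 residual degrees of freedom), and p-values of the moderated test were adjusted over all tested probe sets by Benjamini-Hochberg with a threshold of 0.05. The fit was tested on simulated data.

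The array annotation gives 1 gene symbol for 41097 probe sets, several for 1801 and none for 11777; a gene number linked 41043 of them to the GRCh38 table. All probe sets with 1 symbol of a member were described and the brightest stood for its gene. For the other lists, genes with a probe set called against control are named, at most 6 per list, with the 5 probe sets most like the member of smallest F-test p. Of the genes on the other Wnt target, crypt and receptor lists, 22 of 24, 13 of 15 and 19 of 20 had a probe set with 1 symbol in the annotation used here. The members and lists were chosen with earlier results of these data known. The GAPDH ratio was checked after the data were seen. Alternatives covered normalization, offset, filter, moderation, arrays in the fit, pairing, the methods' t-test, 1 value per gene and leaving out each array. The labels do not say whether replicate numbers pair the samples, and the main fit used no pairs. Correlations of same-numbered deviations were -0.037 to 0.0085 between control and either TIG1 line. Between TIG1A and TIG1B they were 0.192, 0.049 and 0.064. Whether same-numbered arrays were handled together was not tested.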

Additional observations from a re-analysis of the deposited data

Results flagged for a closer look

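At 5 CD44 probe sets every TIG1A array was below the mean of the control arrays and every TIG1B array above it. How many of all tested probe sets had this pattern was not counted. The wider pattern, TIG1A arrays wholly below TIG1B arrays, was found in 12.1% of them. The log2 difference of TIG1A from TIG1B was -0.63 at 212063_at (adjusted p = 0.159), -0.62 at 204490_s_at (adjusted p = 0.328), -0.74 at 1557905_s_at (adjusted p = 0.114), -0.70 at 210916_s_at (adjusted p = 0.166) and -0.89 at 229221_at (adjusted p = 0.208, limma for all). None passed the threshold, and the probe sets read transcripts of the same gene on the same arrays.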

How the results depend on the processing

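Of the 1065 log2 differences of single probe sets recomputed under alternatives, 999 kept their direction and their side of the threshold, 39 reversed in sign, none of them called, 13 passed the threshold they had missed and SOX9 in TIG1A cells missed it under 14. The number of called members in TIG1A cells was 0 in place of 1 with median centring, with no filter, with only the 6 arrays of the comparison, with the methods' t-test and with 1 mean value per gene, 3 with a filter at the 75th percentile and 2 with the trend and robust options of limma; where its call was lost, SOX9 202936_s_at had adjusted p-values of 0.101, 0.160, 0.0922 and 0.120, and the mean of both SOX9 probe sets 0.0715. In TIG1B cells 1 member was called in place of 0 with an offset of 50, 2 at the 75th percentile and 1 with trend and robust options, SOX9 in each case (adjusted p = 0.0456, 0.0146 and 0.0101) and ZNRF3 at the 75th percentile (adjusted p = 0.0201). Between the isoforms 3 CD44 probe sets were called at the 75th percentile and 3 with trend and robust options. The F test called 2 members with the offset, 6 at the 75th percentile and 4 with trend and robust options. Over all probe sets its calls numbered 1219, against 2123, 3419 and 3307. At the 75th percentile 14825 probe sets were tested, without RNF43, NKD1 and the dim CD44 probe sets. Counts there thus have a smaller base than 19 members and 29977 probe sets. Of those 14825, 3601 were called in TIG1A cells, 1794 in TIG1B cells and 676 between the isoforms. With trend and robust options 3571, 1563 and 598 of 29977 were called. The higher counts of called members thus came with more calls over all probe sets. Omitting each array in turn gave 0 to 1 called members in TIG1A cells and 0 otherwise. The methods' t-test had 3, 3 and 7 of 19 members at an unadjusted p below 0.05 in TIG1A, TIG1B and between the isoforms. Over all tested probe sets these shares were 20.5%, 15.3% and 15.9%. After adjustment 0 members passed the t-test. Over all probe sets the calls in TIG1A cells numbered 1818, against 1631 with median centring, 59 without a filter, 166 with 6 arrays, 637 with the replicate block, 121 with the t-test, 2745 with the offset, 3601 at the 75th percentile, 3571 with trend and robust options and 255 to 2799 over the omissions. In TIG1B cells they numbered 535, against 356, 11, 15, 2, 6, 939, 1794, 1563 and 59 to 1041, and between the isoforms 125, against 58, 0, 2, 0, 66, 220, 676, 598 and 0 to 153. The cause was not tested.

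Whether same-numbered samples were paired is not given by the labels. With the replicate block 0 members were called in each comparison, and SOX9 in TIG1A cells had an adjusted p of 0.0830 by limma. Without TIG1A replicate 1 and TIG1B replicate 1 together, which was tried after seeing the data, 0 members were called; the differences that reversed were NKD1 1553115_at at -0.10 in TIG1A cells, CD44 209835_x_at and 204489_s_at at -0.013 and -0.022 in TIG1B cells, and NKD1 232203_at and CD44 1565868_at at -0.40 and -0.057 between the isoforms. Quantile normalization reversed CD44 204489_s_at in TIG1B cells (-0.0099). Median centring reversed ZNRF3 in TIG1A cells (0.015), MYC in TIG1B cells (0.053) and CD44 212014_x_at in TIG1B cells (0.10), and the offset reversed NKD1 1553115_at between the isoforms (0.028).

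Leaving out 1 array reversed other differences, of which the largest with all 9 arrays was that of NKD1 232203_at between the isoforms (0.44). In TIG1B cells these were MYC (-0.19 to 0.076), CD44 212014_x_at (-0.19 to 0.061), 209835_x_at (-0.055 to 0.18) and 204489_s_at (-0.053 to 0.084) and NKD1 1553115_at (-0.072 to 0.59), and in TIG1A cells NKD1 1553115_at (-0.11 to 0.82). Between the isoforms they were SOX9 202936_s_at (-0.19 to 0.064) and 202935_s_at (-0.16 to 0.27), NKD1 232203_at (-0.56 to 1.05) and 1553115_at (-0.37 to 0.56), and CD44 217523_at (-0.54 to 0.27) and 1565868_at (-0.12 to 0.47). With 3 arrays of 1 clone per line, small differences could not be told from the spread.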
